A study of Mus musculus with 9 samples.

Results

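The classical MHC class I antigen presentation machinery was followed through 10 genes, H2-K1, H2-D1, B2m, Tap1, Tap2, Tapbp, Psmb8, Psmb9, Psmb10 and Nlrc5. They were taken by symbol from the feature table of the series, in which they are 10 of 32286 rows. The data are droplet-based 5′ single-cell RNA sequencing of whole dissociated primary tumours, grown by injecting 168FARN cells into the mammary fat pad of female BALB/c mice. 168FARN is a mouse mammary tumour line that carries a histone H2B–mCherry reporter, whose transcript is the row H2BMc. The 9 libraries are 3 tumours of wild-type cells (WT), 3 of cells lacking Kmt2c (Kmt2c KO) and 3 of cells lacking Kmt2d (Kmt2d KO), and both genes encode histone H3 lysine 4 methyltransferases. All 3 cell populations carried the reporter, and no tumour received a drug. The knockouts were made by transfecting pooled guides against exon 1 together with Cas9 and sorting the transfected cells, so each is 1 edited population, and the 3 tumours of a group repeat the mouse and not the knockout. The stromal and immune cells are those of the unmodified host. The labels give neither the age of the mice nor the time of harvest. A library's group was read from the letter C, D or X beside it in the deposited aggregation table, taken as Kmt2c KO, Kmt2d KO and WT, and the numbers 1 to 3 only name the tumours of a group.

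Class I molecules show peptides from inside the cell to cytotoxic T cells. Interferon-inducible subunits of the proteasome cut cytosolic proteins into peptides, the Tap1–Tap2 transporter carries these into the endoplasmic reticulum, tapasin holds an empty class I molecule beside the transporter, and a heavy chain with a bound peptide leaves for the surface only in complex with β2-microglobulin. Nlrc5 is the transactivator of this gene set, and tumours commonly lower the set to escape T cells. A transcript level describes each of these steps and does not measure its rate, so the step that limits presentation was not tested. The comparisons below give which genes stood lowest in WT tumour cells against endothelial cells and macrophages of the same tumours.

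In the GRCm38.p6 annotation from RefSeq, 7 of the 10 genes lie on chromosome 17, in or beside the major histocompatibility complex. Psmb9 (chr17:34182030-34187330), Tap1 (chr17:34187556-34197225), Psmb8 (chr17:34198195-34201454) and Tap2 (chr17:34204479-34216321) are neighbours, Tapbp (chr17:33919478-33929290) and H2-K1 (chr17:33996012-34000619) lie on one side of them, and H2-D1 (chr17:35263094-35267497) on the other. B2m is at chr2:122147687-122153082, Psmb10 at chr8:105935728-105938392 and Nlrc5 at chr8:94434335-94527272. The RefSeq promoter table held 8 of the 10 genes, Tap2 and Nlrc5 being the others. The stretches shown are for a heavy chain, the light chain and a gene pair of the peptide supply. They are the 250 bases before the start of H2-D1 (chr17:35262844-35263093, plus strand), the 250 bases before B2m (chr2:122147437-122147686, plus strand) and the whole 225 bases between the divergent starts of Psmb9 and Tap1 (chr17:34187331-34187555, plus strand, with Psmb9 reading to the left and Tap1 to the right). Capitals mark the motif matches found by a letter search of both strands.
H2-D1: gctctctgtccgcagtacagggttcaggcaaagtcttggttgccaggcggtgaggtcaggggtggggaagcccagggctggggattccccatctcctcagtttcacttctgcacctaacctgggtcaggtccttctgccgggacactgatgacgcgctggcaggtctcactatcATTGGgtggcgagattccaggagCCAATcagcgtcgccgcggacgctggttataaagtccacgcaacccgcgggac
B2m: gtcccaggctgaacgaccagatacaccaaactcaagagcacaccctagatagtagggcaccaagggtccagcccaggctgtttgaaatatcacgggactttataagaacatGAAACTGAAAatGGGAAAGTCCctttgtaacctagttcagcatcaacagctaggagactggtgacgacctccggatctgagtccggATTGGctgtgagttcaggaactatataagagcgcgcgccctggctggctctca
Psmb9 to Tap1: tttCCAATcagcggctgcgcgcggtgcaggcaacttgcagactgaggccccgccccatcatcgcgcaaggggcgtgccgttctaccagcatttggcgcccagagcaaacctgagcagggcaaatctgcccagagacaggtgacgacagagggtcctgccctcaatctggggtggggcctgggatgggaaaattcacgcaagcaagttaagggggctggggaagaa
These are C57BL/6 reference letters, while the tumours and hosts were BALB/c.

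The letters searched for the interferon-stimulated response element were GAAA, 2 free bases and GAAA. For the gamma-activated site bound by STAT factors they were TTC, 3 free bases and GAA. For a kappa B site they were GGGAAA, 2 free bases and CC, and for the CCAAT box CCAAT. Other forms of these sites were not searched, and the search covered only the 250 bases before each start. The response element was found in B2m, 139 bases before the start, and in 3.04% of 27025 promoters. The kappa B letters were found 127 bases before B2m and overlap no other motif there, against 1.58% of all promoters. The gamma-activated letters were found in Psmb8, 97 bases before its start, and in 7.18% of promoters. CCAAT was present in 6 of the 8 genes (H2-K1, H2-D1, B2m, Tap1, Tapbp and Psmb9) and in 34.5% of all promoters, and the match of Psmb9 and that of Tap1 are the same bases between their starts. A match is a description of the letters, and a missing one says only that these letters are not in this window.

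Barcodes with 500 genes or fewer, 7500 genes or more, or at least 15% of counts from mitochondrial genes were dropped, and 58645 of 89147 remained. WT libraries were smaller, with 939 to 2380 kept cells and 21529691 to 30007715 unique molecular identifiers (UMIs, counted transcripts), against 6024 to 11813 cells and 65813392 to 96258851 UMIs in Kmt2c KO and 5997 to 14525 cells and 67759749 to 125617312 UMIs in Kmt2d KO libraries. The mitochondrial limit alone removed 11.6% to 33.8% of barcodes in WT, 7.78% to 9.96% in Kmt2c KO and 13.3% to 17.6% in Kmt2d KO libraries. Of 56715 distinct kept barcode sequences, 1889 occurred in more than 1 library. Tumour cells were those with at least 1 H2BMc UMI (16707 cells, 361 to 3434 per tumour, with median depths of 8661 to 24081 UMIs per cell), and 79.9% of them held Krt8. Levels are given in CPM (the UMIs of a gene over all UMIs summed in the gated cells of a tumour, on the usual CPM scale). Marker levels are pooled over all tumours unless a library is named. Krt18 was at 0.134 CPM (0.459 in the highest library) and Epcam at 0.0043 CPM (0.0328 in the highest library). Kmt2c transcripts ran from 42.0 to 57.6 CPM in Kmt2c KO and from 48.1 to 49.1 CPM in WT tumour cells, and Kmt2d transcripts from 24.3 to 31.9 CPM in Kmt2d KO and from 14.9 to 21.4 CPM in WT, so transcript counts of the targeted genes check no label here, since small exon 1 edits need not lower them.

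Stromal gates were set on marker genes, with 0 UMIs of H2BMc, Krt8 and Krt18. The endothelial gate held 437 cells (28 to 70 per tumour, 163037 to 492875 UMIs per tumour), with the gate genes Pecam1 and Cdh5 at 1220 and 1275 CPM. Flt1, Tie1 and Tek, which the gate did not use, were at 682, 414 and 121 CPM. The macrophage gate held 588 cells (21 to 145 per tumour, 79035 to 383612 UMIs), with the gate genes C1qa and Csf1r at 3637 and 641 CPM. Lyz2, Tyrobp, Ctsc and Mrc1, which the gate did not use, were at 6700, 1939, 1539 and 637 CPM. Among markers the gates did not set to 0, Fcgr3 was at 0, C1qb at 2.18, Tyrobp at 3.28 and Lyz2 at 6.19 CPM in endothelial cells. The mural gene Rgs5 was at 46.2 CPM there and reached 161 CPM in the highest library. In macrophages Cldn5 and Emcn were at 0, Kdr at 30.3 and Pecam1 at 60.0 CPM. The fibroblast markers Lum and Clec3b were at 10.1 and 18.5 CPM there and reached 139 and 80.3 CPM in the highest library. H2BMc-positive tumour cells held Lum and Clec3b at 52.0 and 130 CPM, so these 2 markers do not tell fibroblast RNA from tumour RNA. No doublet caller was run. The fibroblast gate held 1982 cells, of which only 147 (7.42%) carried UMIs of both Col1a1 and Col1a2, and 22.5% of H2BMc-positive cells also carried 3 of the 8 fibroblast markers. The label is therefore not borne out, and fibroblasts cannot be told apart here from tumour cells without a detected H2BMc UMI. These cells are called the fibroblast-marker gate and described last. Counts of different genes are set side by side only as values, since capture can differ between genes, and each comparison is of a gene with itself across cells and groups.

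In WT tumour cells, Psmb9, Psmb8, Psmb10 and Tap1 stood well below endothelial cells and macrophages, whereas H2-K1 was not called lower than in either. None of Psmb9, Psmb8, Psmb10 and Tap1 was called lower than in the fibroblast-marker gate, which is described last. The 3 immunoproteasome subunits and Tap1 were 2.70-fold to 4.38-fold below endothelial cells of the same tumours, and B2m and Tap2 1.68-fold and 1.58-fold below. H2-K1 was not called different, though within a library it was 1.01-fold to 1.16-fold higher in the endothelial cells of all 3 WT tumours. Psmb9, the inducible subunit that replaces Psmb6, was 50.9, 48.4 and 62.1 CPM in tumour cells of WT tumours 1, 2 and 3 and 170.2, 231 and 286 CPM in their endothelial cells. Tap1, 1 chain of the peptide transporter, was 35.2, 35.0 and 43.0 CPM in tumour cells and 110.0, 102.8 and 140.0 CPM in endothelial cells. Both genes were higher in the endothelial cells of every WT tumour, 3.34-fold to 4.76-fold for Psmb9 and 2.93-fold to 3.25-fold for Tap1 within a library.

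By edgeR's quasi-likelihood test over the sums of all tumours and gates, with the tumour as a block, 8 of the 10 genes were lower in WT tumour cells than in WT endothelial cells at a Benjamini-Hochberg adjusted p below 0.05, where 27.2% of the 9685 genes tested were lower. The log2 difference was -2.13 ± 0.21 (SE) for Psmb9, adjusted p = 1.2e-10. It was -1.67 ± 0.15 for Tap1, adjusted p = 3.9e-11, -1.54 ± 0.15 for Psmb8 and -1.43 ± 0.18 for Psmb10, the other inducible subunits. The differences were smaller for the other genes that passed, at -0.74 ± 0.11 for B2m, -0.66 ± 0.14 for Tap2, -0.39 ± 0.16 for Tapbp, which encodes tapasin (adjusted p = 0.034), and -0.29 ± 0.12 for H2-D1 (adjusted p = 0.042). H2-K1 (-0.18 ± 0.13, adjusted p = 0.26) and Nlrc5 (-0.77 ± 0.34, adjusted p = 0.052) did not pass. The median over the 10 genes was -0.76 and over all genes tested 0.08. Leaving out a single library gave 6 to 9 genes called.

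Against WT macrophages, Psmb9, Tap1, Psmb10 and Psmb8 were again the furthest below, with Nlrc5 level with them. Psmb9 was 223, 271 and 237 CPM in macrophages of WT tumours 1, 2 and 3, and Tap1 178, 127 and 195 CPM, so that both lay above the tumour cells of each library. Of the 10 genes, 6 were lower in tumour cells than in macrophages (23.2% of genes tested were lower): Psmb9 by a log2 difference of -2.15 ± 0.26, Tap1 of -2.14 ± 0.19, Psmb10 of -1.71 ± 0.22, Psmb8 of -1.69 ± 0.17, Nlrc5 of -1.68 ± 0.41 and Tapbp of -0.98 ± 0.18. H2-K1 was the only 1 of the 10 that was higher in tumour cells (0.40 ± 0.13, adjusted p = 0.014, where 25.9% of genes were higher), and it did not pass without WT tumour 1 (0.28 ± 0.15, adjusted p = 0.13). H2-D1 (-0.08 ± 0.12), B2m (-0.22 ± 0.11) and Tap2 (-0.04 ± 0.21) did not pass. Macrophage sums were the shallowest, with Nlrc5 resting on 5 to 12 UMIs per WT tumour and Tap2 on 7 to 23.

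**Figure D1:**
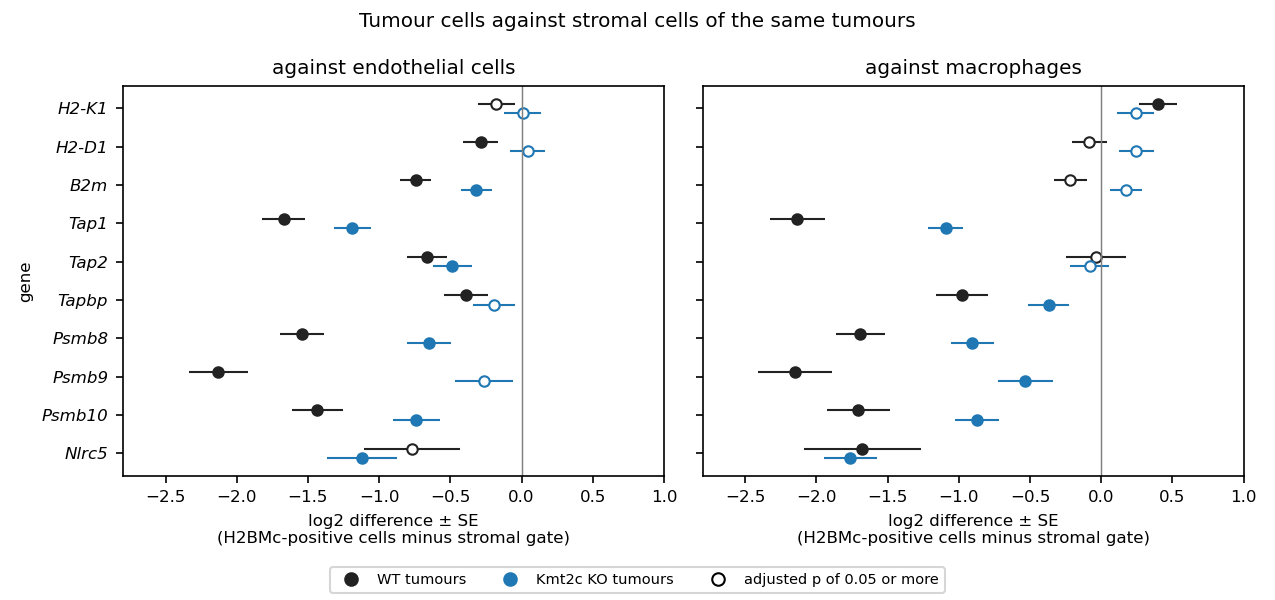
Log2 difference ± SE between H2BMc-positive tumour cells and endothelial cells (left) or macrophages (right) of the same tumours for the 10 genes, in WT tumours (black) and Kmt2c KO tumours (blue), with open circles for an adjusted p of 0.05 or more. In WT tumours Psmb9, Tap1, Psmb8 and Psmb10 sit between -1.43 and -2.15 while H2-K1 lies at -0.18 and 0.40.

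In Kmt2c KO tumours, Psmb9 did not pass against endothelial cells but stayed lower than in macrophages, and Tap1 stayed below both. Against endothelial cells of their own tumours, Psmb9 was -0.26 ± 0.20 on the log2 scale (adjusted p = 0.30), and within a library the endothelial level was 1.07-fold to 1.24-fold that of the tumour cells. Tap1 stayed 1.82-fold to 2.58-fold higher in the endothelial cells of all 3 Kmt2c KO tumours and passed the test (-1.19 ± 0.13, adjusted p = 2.7e-09). In all, 6 of the 10 genes were lower in Kmt2c KO tumour cells than in their endothelial cells (Tap1, Nlrc5, Psmb10, Psmb8, Tap2 and B2m, where 23.1% of genes tested were lower), and 6 were lower than in their macrophages (Nlrc5, Tap1, Psmb8, Psmb10, Psmb9 and Tapbp, against 26.1%). Nlrc5 was -1.12 ± 0.24 against endothelial cells and -1.76 ± 0.19 against macrophages, the largest difference of the 10 in the second comparison. In Kmt2d KO tumours, 7 of the 10 were lower in tumour cells than in endothelial cells (25% of genes tested), with Tap1 at -1.43 ± 0.14 and Psmb9 at -0.99 ± 0.21, and against macrophages 5 were lower (21.1%) while H2-K1 and H2-D1 were higher (23.3%).

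Shares of cells with a transcript were compared between WT tumour and endothelial cells at an equal depth. At 1500 UMIs per cell those of Tap1, the immunoproteasome, B2m and Tapbp were lower in tumour cells, whereas those of Tap2 overlapped. How often such shares do not overlap over all genes was not computed, so the overlaps are a description at this depth. Tumour cells were deeper than host cells, so each cell was thinned to 1500 UMIs, which left out 5 WT, 71 Kmt2c KO and 223 Kmt2d KO tumour cells and 17, 13 and 20 endothelial cells. At this depth 98.6% to 99.6% of WT tumour cells held a heavy chain UMI (H2-K1 or H2-D1) and 82.5% to 87.9% held B2m. Tap1 was in 5.09% to 7.52%, any of the 3 immunoproteasome genes in 28.1% to 32.0% and Tapbp in 12.5% to 13.0%. The WT endothelial cells held B2m in 90.7% to 96.9%, Tapbp in 17.2% to 20.9%, Tap1 in 11.6% to 17.2% and an immunoproteasome gene in 51.2% to 60.9% of cells. At this depth each of these ranges lay above that of the WT tumour cells. Tap2 was in 11.9% to 18.4% of WT tumour cells and in 12.5% to 16.3% of WT endothelial cells. These ranges overlap at this depth, although the summed level of Tap2 was lower in tumour cells. In Kmt2c KO tumour cells the shares were 22.3% to 23.8% for Tap1, 69.0% to 71.3% for the immunoproteasome and 97.1% to 97.9% for B2m. Unthinned, the heavy chains were in at least 99.7% of WT tumour cells, Tap1 in 35.1% to 54.6% and an immunoproteasome gene in 87.7% to 93.4%, while WT endothelial cells held Tap1 in 41.4% to 44.2% and an immunoproteasome gene in 85.4% to 86.5%. No gated cell type lacks these genes, so no background share from free RNA can be given, and a share counts cells with a UMI, not cells that express the gene.

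The summed UMIs of the 10 genes per tumour cell, at 1500 UMIs, were mostly H2-K1, H2-D1 and B2m, and so describe these 3 genes more than the rest. In WT tumours the cell at the 10th percentile held 4 to 5 UMIs, the median cell 11 and the cell at the 90th percentile 22 to 26. In Kmt2c KO tumours these were 12 to 13, 25 to 27 and 43 to 46, so that the 10th percentile of Kmt2c KO tumour cells lay above the WT median in each of the 3 tumours. Kmt2d KO tumours fell between, with medians of 17 to 20.

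**Figure D2:**
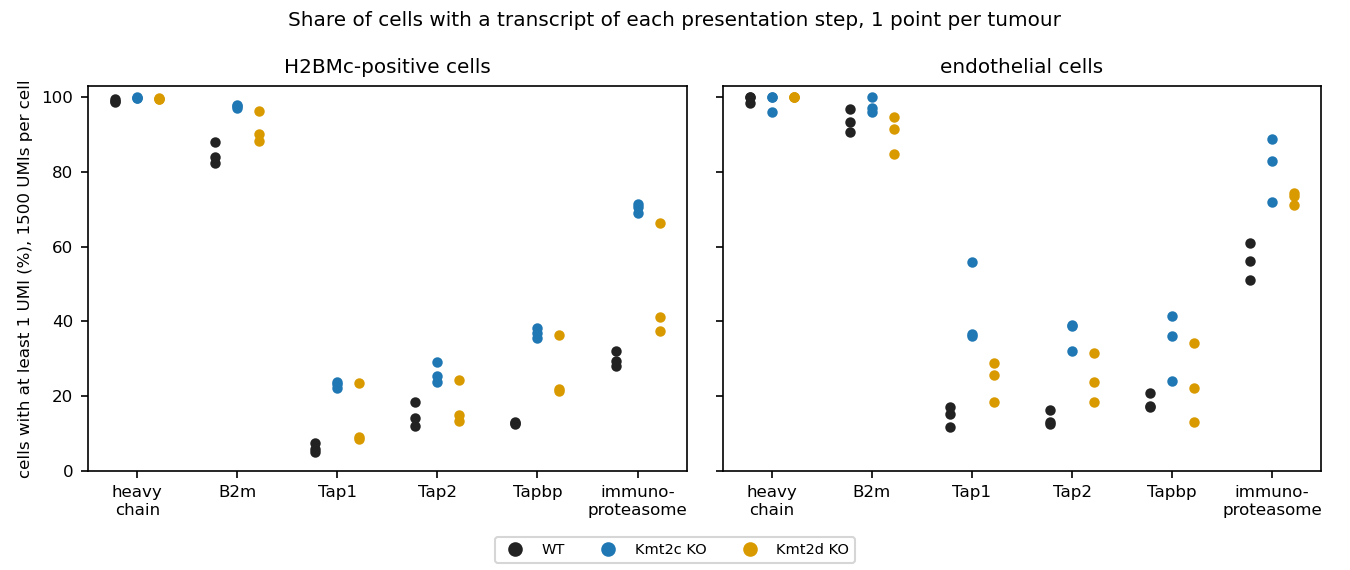
Percentage of H2BMc-positive cells (left) and endothelial cells (right) with at least 1 UMI of each presentation step after thinning to 1500 UMIs per cell, with 1 point per tumour. In WT tumour cells the heavy chains reach 98.6% to 99.6% and Tap1 5.09% to 7.52%, and in Kmt2c KO tumour cells Tap1 reaches 22.3% to 23.8%.

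The genotype comparison set the tumour cells of each knockout group against those of WT tumours. The cause of a difference was not tested. All 10 genes rose in Kmt2c KO tumour cells, by 2.05-fold (H2-K1) to 6.40-fold (Psmb9), where 9.57% of the 14089 genes tested rose, 9.17% fell and 18.7% changed in either direction. The lowest Kmt2c KO tumour lay above the highest WT tumour for 10 of 10 genes, against 20.8% of all genes. The median log2 fold change over the 10 genes was 1.58 and over all genes tested -0.00.

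The heavy chains bind the peptide. H2-K1 was 5499, 6005 and 5312 CPM in Kmt2c KO tumours 1, 2 and 3 and 2724, 2672 and 2821 CPM in WT tumours 1, 2 and 3. H2-D1 was 6290, 6684 and 6301 CPM in Kmt2c KO and 2582, 2720 and 2758 CPM in WT tumours. Both groups were tight and far apart, with log2 fold changes of 1.03 ± 0.09 for H2-K1 (adjusted p = 0.00019) and 1.26 ± 0.09 for H2-D1 (adjusted p = 7.3e-05). These 2 counts are uncertain in identity, because the reads come from BALB/c alleles mapped to a C57BL/6 reference and heavy chain genes resemble each other, so reads can be lost or shared among them. B2m, the light chain shared by every class I molecule, was 3171, 3273 and 3935 CPM in Kmt2c KO and 1445, 1443 and 1397 CPM in WT tumours, a log2 fold change of 1.27 ± 0.20 (adjusted p = 0.0026).

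Both chains of the peptide transporter and tapasin rose. Tap1 was 177, 183 and 187 CPM in Kmt2c KO tumours, with no overlap with the WT values above, and its log2 fold change was 2.27 ± 0.33 (4.82-fold, adjusted p = 0.0021). Tap2, the other chain of the transporter, was 172, 180.3 and 217 CPM in Kmt2c KO and 77.9, 78.2 and 83.8 CPM in WT tumours (1.24 ± 0.24, adjusted p = 0.0070). Tapbp was 292, 330 and 343 CPM in Kmt2c KO and 109, 105 and 108 CPM in WT tumours (1.58 ± 0.22, 2.99-fold). The lowest Kmt2c KO tumour lay well above the highest WT tumour for each of these genes.

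The 3 immunoproteasome subunits all rose, and Psmb9 had the largest fold change of the 10 genes. Psmb9 was 360.0, 339.6 and 335 CPM in Kmt2c KO tumours, a log2 fold change of 2.68 ± 0.36 (adjusted p = 0.0015). Psmb10, which replaces Psmb7, was 212, 250.3 and 255 CPM in Kmt2c KO and 53.0, 50.3 and 63.2 CPM in WT tumours (2.10 ± 0.39, 4.30-fold). Psmb8, which replaces Psmb5, was 445, 446 and 451 CPM in Kmt2c KO and 148, 145 and 158 CPM in WT tumours (1.57 ± 0.23, 2.97-fold). Nlrc5, the transactivator, was 16.3, 14.4 and 14.7 CPM in WT tumours and 47.4, 47.8 and 69.1 CPM in Kmt2c KO tumours (1.85 ± 0.35, 3.6-fold, adjusted p = 0.0065). All 10 were called in the main test and in each alternative, including DESeq2, every left-out library, a mitochondrial limit of 25% and cells free of immune or endothelial UMIs. The WT libraries differed from the knockout libraries in size and depth as a whole, and the part of this in the result was not tested.

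**Figure D3:**
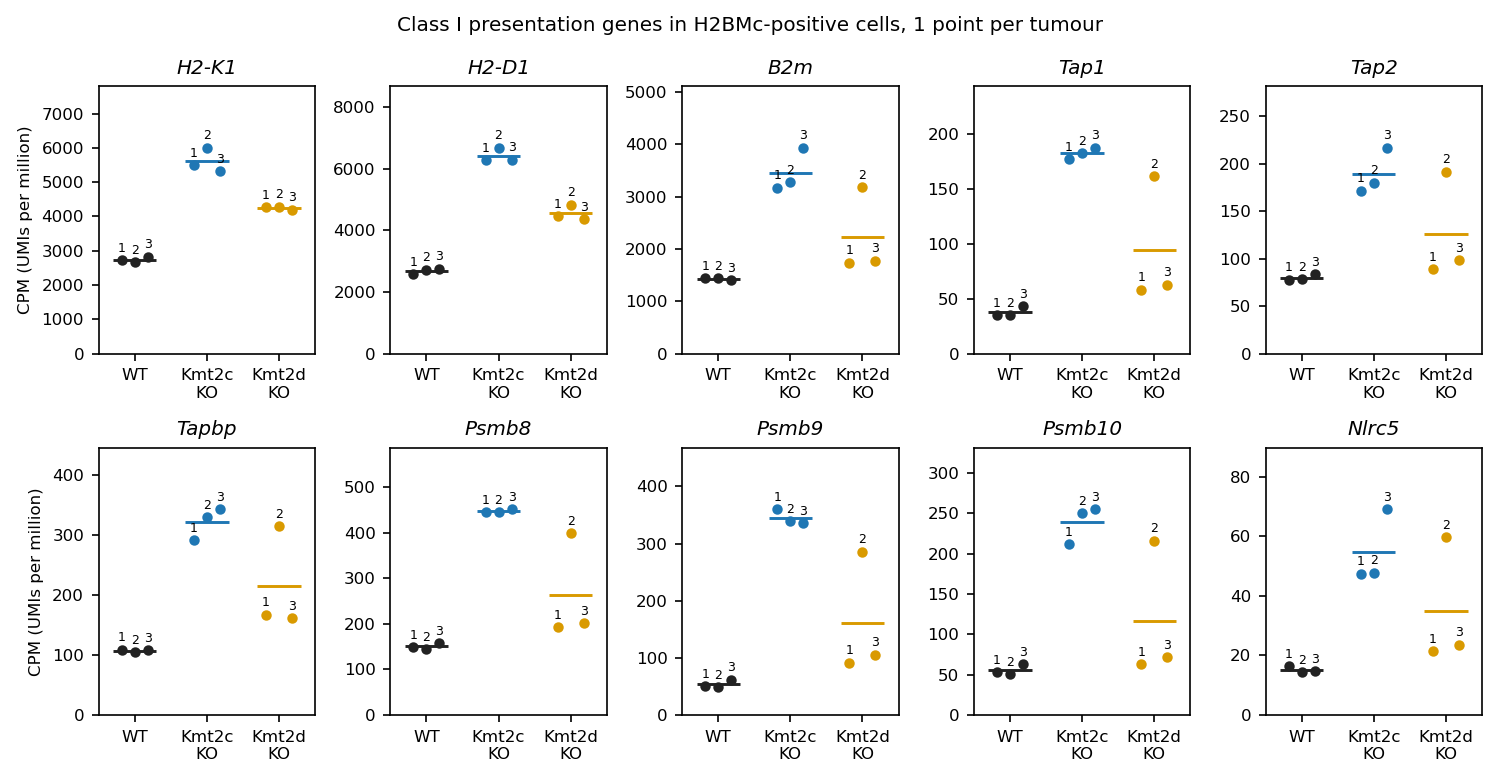
Level of each of the 10 genes in H2BMc-positive cells in CPM (the UMIs of a gene over all UMIs summed in the gated cells of a tumour, on the usual CPM scale), with 1 numbered point per tumour and a bar at the group mean. The 3 Kmt2c KO tumours lie above the 3 WT tumours in every panel, and Kmt2d KO tumour 2 lies above Kmt2d KO tumours 1 and 3, by 1.01-fold for H2-K1 and 3.21-fold for Psmb10 over their mean.

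Lymphocytes, which can supply interferon gamma, were counted beside these values. Cells with a UMI of Cd3e, Cd3d or Cd3g made up 0.237%, 2.62% and 1.31% of kept cells in Kmt2c KO tumours 1, 2 and 3, 1.23%, 0.611% and 0.406% in Kmt2d KO tumours and 1.10%, 0.840% and 1.70% in WT tumours. Ifng UMIs numbered 2, 154 and 10 in Kmt2c KO, 3, 7 and 9 in Kmt2d KO and 1, 3 and 4 in WT libraries. Per 10000 kept cells these were 1.69, 176 and 16.6 in Kmt2c KO, 5.0, 9.94 and 6.20 in Kmt2d KO and 8.44, 12.6 and 42.6 in WT libraries, so that WT tumour 3 ranked second of the 9. The part of these cells in the levels of the 10 genes was not tested. Summed CPM of 7 immune markers in the tumour cells (Ptprc, C1qa, C1qb, Lyz2, Tyrobp, Cd3e and Cd3d) were 13.9 to 27.6 in Kmt2c KO, 8.26 to 22.5 in Kmt2d KO and 9.20 to 15.6 in WT tumours, and all 10 genes were also called among tumour cells with 0 UMIs of Ptprc, Pecam1, Cdh5, C1qa and Tyrobp.

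In Kmt2d KO tumour cells the heavy chains and Tapbp rose, and the other 7 genes had higher means but did not pass. H2-K1 was 4278, 4288 and 4193 CPM in Kmt2d KO tumours 1, 2 and 3, all above WT and close to each other, a log2 fold change of 0.60 ± 0.09 (adjusted p = 0.0075). H2-D1 was 4462, 4829 and 4365 CPM (0.73 ± 0.09, adjusted p = 0.0025). Tapbp was 167, 316 and 161 CPM (0.96 ± 0.21, adjusted p = 0.047), where 1.04% of genes tested rose. Kmt2d KO tumours lay above all WT tumours for 9 of the 10 genes (Psmb10 overlapped), against 13.3% of all genes, and the median log2 fold change over the 10 was 0.87. The 7 that did not pass ran from 0.61 ± 0.19 for B2m (adjusted p = 0.14) to 1.54 ± 0.35 for Psmb9 (adjusted p = 0.051).

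The Kmt2d KO tumours fell into 1 high and 2 lower tumours for every gene but the heavy chains. Tumour 2 was the highest of the 3 for all 10 genes, and for 45.2% of all genes. Psmb9 was 91.7, 286 and 106 CPM in Kmt2d KO tumours 1, 2 and 3, and Tap1 58.2, 162 and 62.7 CPM. Tumour 2 was 2.89-fold above the mean of the other two for Psmb9, 2.67-fold for Tap1, 3.21-fold for Psmb10, 2.66-fold for Nlrc5 and 1.81-fold for B2m, but 1.01-fold for H2-K1 and 1.09-fold for H2-D1. In tumours 1 and 3, the mean was 1.55-fold and 1.64-fold above WT for H2-K1 and H2-D1, 1.83-fold for Psmb9, 1.60-fold for Tap1 and 1.17-fold for Tap2. The share of cells with Tap1 at 1500 UMIs was 8.56% to 9.06% in tumours 1 and 3 and 23.4% in tumour 2. The summed immune markers in tumour cells also stood at 22.5 CPM in tumour 2 and at 9.98 and 8.26 CPM in tumours 1 and 3, and their part in the result was not tested.

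Without tumour 2 the Kmt2d KO group was tighter, and 7 of the 10 genes were called against WT (H2-K1, H2-D1, Tap1, Tapbp, Psmb8, Psmb9 and Nlrc5), where 403 of 14208 genes rose, with a log2 fold change of 0.86 ± 0.12 for Psmb9 and 0.66 ± 0.10 for Tap1, so that both changes were smaller by over 1.5 times and passed the test. B2m (0.28 ± 0.09), Tap2 (0.20 ± 0.10) and Psmb10 (0.26 ± 0.12) did not pass there. Without Kmt2d KO tumour 1 the count was 5, where 131 of 14446 genes rose, and without WT tumour 1 it was 1, where 48 of 14416 rose. DESeq2 called 6 of the 10, where 331 of 14080 genes rose.

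Kmt2d KO tumour cells were not called different from Kmt2c KO tumour cells for any of the 10 genes by edgeR's quasi-likelihood test, although all 10 log2 differences were negative, from -0.43 ± 0.09 for H2-K1 to -1.14 ± 0.34 for Psmb9 (median -0.67, all genes 0.01). Only 11 of 14089 genes, or 0.0781%, passed in either direction, and 2506 had an unadjusted p below 0.05, among them 9 of the 10 (not Nlrc5). The highest Kmt2d KO tumour lay below the lowest Kmt2c KO tumour for 5 of the 10, against 7.42% of all genes. The result depended on Kmt2d KO tumour 2, on the low-count filter and on the tool. Without tumour 2 all 10 were called lower, with -1.83 ± 0.12 for Psmb9 and -1.61 ± 0.10 for Tap1, where 1482 of 14208 genes were called lower. On all 9 tumours, 7 of the 10 were called without the low-count filter, where 333 of 23482 genes were lower, and DESeq2 called 4, where 325 of 13260 were.

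The same genes were then compared by genotype in endothelial cells and macrophages, which did not carry the knockout. The part of RNA carried over from tumour cells in these values was not tested. In endothelial cells of Kmt2c KO tumours, 9 of the 10 genes were higher than in WT tumours (3.97% of 5395 genes tested were higher), and for 10 of 10 the lowest Kmt2c KO tumour lay above the highest WT tumour (12% of all genes). Tap1 was 435, 333 and 484 CPM in endothelial cells of Kmt2c KO tumours 1, 2 and 3 (log2 fold change 1.83 ± 0.31, adjusted p = 0.0035). Nlrc5 was 129, 123 and 89.6 CPM against 18.3, 27.6 and 28.4 CPM in WT, on 7 to 32 UMIs per tumour (2.21 ± 0.53, adjusted p = 0.025). H2-K1 was 5103, 5594 and 5766 CPM against 2750, 3079 and 3285 CPM (0.88 ± 0.16), and B2m 4024, 4189 and 4530 CPM against 2063, 2472 and 2479 CPM (0.89 ± 0.22).

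Psmb8 was the gene that did not pass in endothelial cells, at 632, 655 and 795 CPM in Kmt2c KO and 379.7, 376 and 536 CPM in WT tumours (0.71 ± 0.24, adjusted p = 0.10). Psmb9 was 386, 421 and 412 CPM in Kmt2c KO tumours and passed narrowly (0.85 ± 0.24, adjusted p = 0.046), Psmb10 was 349.6, 398 and 436 CPM (1.43 ± 0.32), and Tapbp was 282, 387 and 418 CPM (1.42 ± 0.33). The calls depended on single libraries: leaving out Kmt2c KO tumour 1, 2 or 3 left 5, 4 and 3 genes called, and leaving out WT tumour 1, 2 or 3 left 3, 3 and 5. The log2 fold changes moved less over all alternatives, from 0.79 to 0.97 for H2-K1, 1.72 to 2.01 for Tap1 and 1.33 to 1.57 for Tapbp. Endothelial cells with 0 UMIs of Tyrobp, Lyz2, Cd3e and Cd3d gave 9 genes again.

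In macrophages all 10 genes were higher in Kmt2c KO than in WT tumours (6.73% of 3358 genes tested were higher; 10 of 10 without overlap, against 14% of all genes). The log2 fold changes ran from 0.74 ± 0.20 for Psmb8 to 1.91 ± 0.29 for Nlrc5, which was 149, 163 and 206 CPM in Kmt2c KO and 52.0, 39.8 and 50.8 CPM in WT tumours. H2-K1 was 4369, 4897 and 4161 CPM in Kmt2c KO and 1841, 2294 and 2151 CPM in WT tumours (1.15 ± 0.16, adjusted p = 0.0011). Tap1 was 404, 327 and 386 CPM in Kmt2c KO tumours (1.17 ± 0.27, adjusted p = 0.011). Leaving out Kmt2c KO tumour 2 or 3 left 4 and 5 genes called, and leaving out WT tumour 1, 2 or 3 left 4, 4 and 6. Shares of all genes called in these smaller fits are not given here either.

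Endothelial cells and macrophages of Kmt2d KO tumours were not called different from WT for any of the 10 genes. In endothelial cells all 10 log2 fold changes were above 0, from 0.20 ± 0.24 for Psmb8 to 1.37 ± 0.56 for Nlrc5, where edgeR's quasi-likelihood test called 0.0185% of genes higher and 474 genes, 7 of the 10 among them, had an unadjusted p below 0.05, and 3 of the 10 did not overlap with WT (7.12% of all genes). In macrophages they ran from 0.23 ± 0.18 for H2-D1 to 0.81 ± 0.34 for Nlrc5, where 0% of genes were called, 250 genes, 2 of the 10 among them, had an unadjusted p below 0.05 and 2 of the 10 did not overlap (4.71% of all genes). Tumour 2 was again the highest of the Kmt2d KO tumours for 10 of 10 genes in each of the 2 gates, as it was for 34.5% of all genes in endothelial cells and 32.6% in macrophages. Its endothelial cells held Tap1 at 387 CPM beside 142 and 195 CPM in tumours 1 and 3, and its macrophages 318 CPM beside 148 and 202 CPM. The 3 gates of a tumour share a library, so their order across tumours is not independent.

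**Figure D4:**
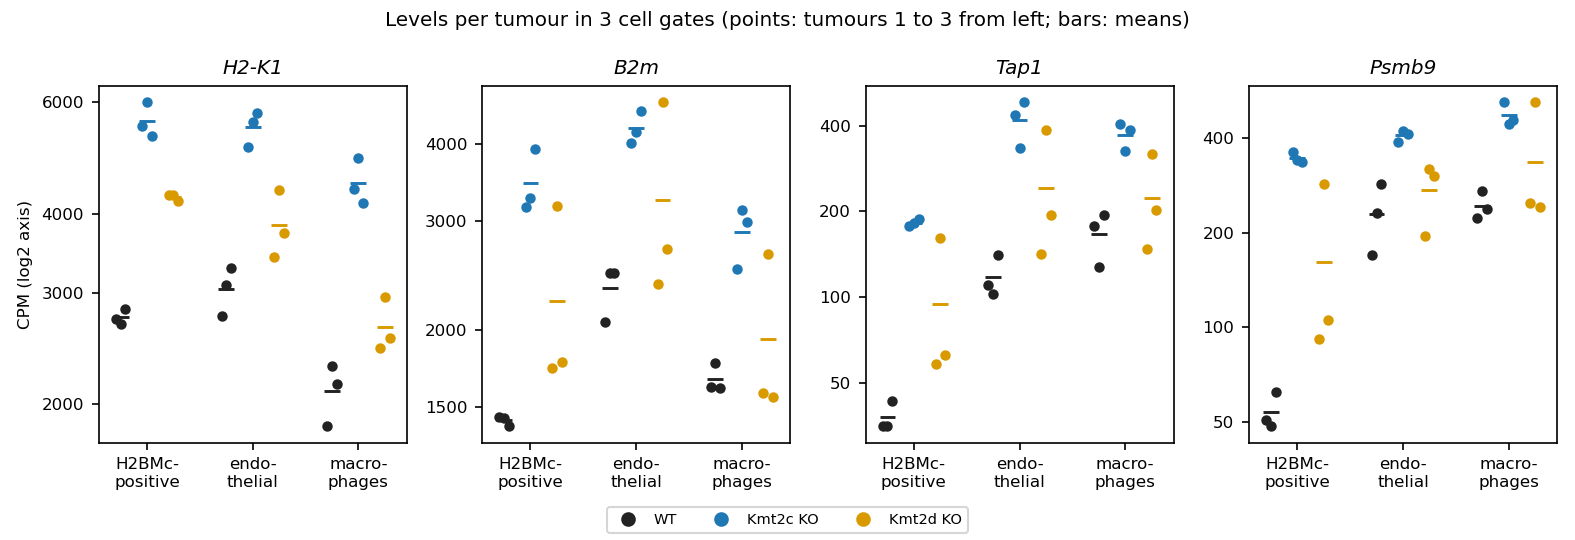
Level of H2-K1, B2m, Tap1 and Psmb9 in CPM on a log2 axis in H2BMc-positive cells, endothelial cells and macrophages, with 1 point per tumour (1 to 3 from the left) and a bar at the group mean. In WT tumours Tap1 runs from 35.0 to 43.0 CPM in tumour cells and from 102.8 to 140.0 CPM in endothelial cells, and Kmt2d KO tumour 2 is the highest of its group in all 3 gates.

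**Figure D5:**
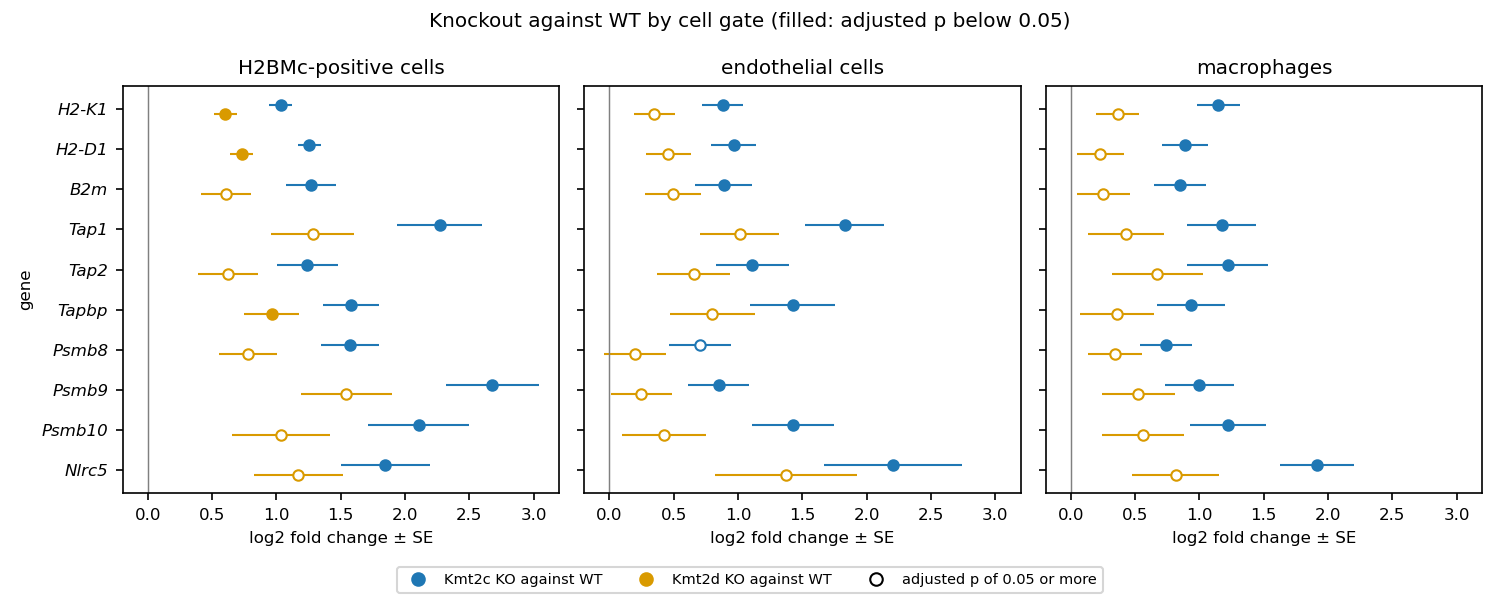
Log2 fold change ± SE of each gene against WT in H2BMc-positive cells, endothelial cells and macrophages, for Kmt2c KO (blue) and Kmt2d KO (ochre), with filled circles for an adjusted p below 0.05. Psmb9 stands at 2.68 in Kmt2c KO tumour cells and at 0.85 and 1.00 in the endothelial cells and macrophages of the same tumours.

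Whether the Kmt2c KO difference was larger in tumour cells than in endothelial cells or macrophages was tested directly as an interaction in the joint fit. Against endothelial cells it was larger for Psmb9, by 1.87 ± 0.28 on the log2 scale (adjusted p = 0.00017), and for Psmb8, by 0.89 ± 0.22 (adjusted p = 0.020), where 1.07% of 9685 genes were called in that direction. Against macrophages it was larger for Psmb9, by 1.62 ± 0.31 (adjusted p = 0.0029), and for Tap1, by 1.04 ± 0.22 (adjusted p = 0.0060), against 1.02% of genes. For H2-K1 the interaction was 0.19 ± 0.18 against endothelial cells and -0.16 ± 0.19 against macrophages, and neither passed. In the Kmt2d KO comparison edgeR's quasi-likelihood test called none of the 10 against either gate, where 0% and 0.0516% of genes were called in that direction. By the same test 711 and 709 genes had an unadjusted p below 0.05, 2 and 5 of the 10 among them. The interaction was above 0 for 8 of the 10 against endothelial cells and for 9 against macrophages. The largest value was 1.14 ± 0.28 for Psmb9 against endothelial cells (adjusted p = 0.17).

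In the fibroblast-marker gate, which holds mostly cells without collagen I transcripts, 9 of the 10 genes were higher in Kmt2c KO than in WT tumours (6.28% of 10440 genes tested), and H2-D1 (0.94 ± 0.23) and B2m (1.19 ± 0.27) in Kmt2d KO tumours (2.96%). Nlrc5 was the exception in Kmt2c KO, at 81, 80.8 and 144 CPM beside 86.7, 61.6 and 59.3 CPM in WT tumours (0.62 ± 0.42, adjusted p = 0.33). Its WT level there was above that of WT tumour cells (tumour cells minus gate, -2.06 ± 0.23 on the log2 scale, adjusted p = 2.6e-09), whereas Psmb9 was lower in the gate, at 36.1, 28.3 and 32.6 CPM (0.85 ± 0.30). In the gate, mean WT levels of Tap1, Psmb8 and Psmb10 were 40.1, 147 and 63.8 CPM. In WT tumour cells they were 37.8, 150 and 55.5 CPM. None of these differences passed, while Tap2 passed as lower and B2m as higher in WT tumour cells. In all, 2 of the 10 were called higher and 2 lower in WT tumour cells than in the gate. The share of all genes called in this comparison is not given here, so these calls are not read as a result about the 10. The knockout difference of Nlrc5 was larger in tumour cells than in the gate in both knockouts. The interaction was 1.31 ± 0.25 in Kmt2c KO, where 13.5% of genes were called higher, and 1.36 ± 0.26 in Kmt2d KO, where 11.3% were. The knockout difference of B2m was smaller in Kmt2d KO (-0.50 ± 0.15, where 6.81% were called lower). Each of these calls was 1 of the 10, near the share of all genes, so the counts are not read as a result about the 10. With 1 more marker required, 4 and 0 genes were called for the 2 knockouts, and among cells with both collagen I transcripts 0 and 0, by edgeR's quasi-likelihood test on sums of 5 to 48 cells per tumour, with 8 tumours in the fit. The levels there were not alike: Psmb9 was 276, 355 and 147 CPM in collagen I cells of the Kmt2c KO tumours and 41.8 and 16.7 CPM in those of WT tumours 1 and 3, where it rested on 7 and 1 UMIs. The lost calls therefore do not show that the groups were alike in these cells. For these stricter gates the shares of all genes called are not given here.

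Other genes of the pathway were counted by list in Kmt2c KO tumour cells, where 18.7% of all genes changed in either direction. The shares of the proteasome, trimming and regulator lists lay near that for lists of this size. Of 7 proteasome genes outside the 10, the activator subunits Psme1 (log2 fold change 0.91 ± 0.16) and Psme2 (0.82 ± 0.20) rose and the other 5, the constitutive catalytic subunits Psmb5, Psmb6 and Psmb7 among them, did not pass (list median 0.01). Of 6 peptide trimming genes, Erap1, the aminopeptidase of the endoplasmic reticulum, rose (1.02 ± 0.22). Of 6 loading genes, Tapbpl, a tapasin homologue (1.63 ± 0.31), and Uggt1, a glycoprotein folding sensor (0.32 ± 0.09), rose, and Canx, the chaperone calnexin, fell (-0.42 ± 0.08). Of 12 regulators, the interferon-induced factor Irf1 (1.78 ± 0.24), its family member Irf2 (0.51 ± 0.13) and the feedback inhibitor Socs1 (1.17 ± 0.18) rose, and 9 did not pass.

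The other class I heavy chain genes all rose in Kmt2c KO tumour cells. Of 7 listed, 6 were in the table and all 6 rose (median 2.05), where 9.57% of all genes rose, with H2-Q7 at 2.22 ± 0.17, H2-Q6 at 2.21 ± 0.17 and H2-T23 at 2.17 ± 0.24. In Kmt2d KO tumour cells 4 of the 6 rose, H2-Q6 (1.63 ± 0.17), H2-Q7 (1.38 ± 0.16), H2-T23 (1.24 ± 0.23) and H2-Q4 (1.01 ± 0.11), where 1.04% of all genes rose, and H2-T22 (0.85 ± 0.28, adjusted p = 0.15) and H2-M3 (0.58 ± 0.15, adjusted p = 0.074) did not pass. Of the 31 genes of the proteasome, trimming, loading and regulation lists, 0 passed by edgeR's quasi-likelihood test, in a contrast in which 147 genes rose and 173 fell of 14089, so that few calls would be met in a list of this size. These close paralogues can share reads with H2-K1 and H2-D1 and with each other.

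The genes whose level across the 9 tumours was most like the mean of the 10 were ranked by Pearson's r of log2(CPM + 1) in tumour cells over 8650 genes with a mean of at least 10 CPM, as a description over 3 groups. Rtp4 (0.997), Phf11d (0.997), Oas2 (0.996), H2-M3 (0.996), C4b (0.995), Apol9b (0.993) and Irgm2 (0.993) were 7 of the first 8, and the eighth is not reported here. Rtp4 averaged 27.4 CPM in WT and 261 CPM in Kmt2c KO tumours and was 58.5, 186 and 56.1 CPM in Kmt2d KO tumours 1, 2 and 3, with the same high tumour 2. Each point of these correlations is a library, and the 3 groups differ in both measures, so r follows the groups as well as the tumours within them.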

How the data were processed

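Whole-tumour suspensions of 9 tumours were profiled by 5′ single-cell RNA sequencing. The authors ran Cell Ranger 7.0.1 and deposited whole-number UMI counts per gene and barcode in 1 aggregated matrix. The labels name mm10 as the build, and no source used here says whether aggregation thinned the libraries to a common depth. The library of a barcode was taken from its suffix. The letters of the aggregation table gave the groups, with X taken as WT because the study sets C and D each against X. The counts are as deposited, with 585680611 UMIs in all.

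Stromal gates required 0 UMIs of H2BMc, Krt8 and Krt18, at least 10 cells per tumour, and the following markers. Endothelial cells held at least 2 of Pecam1, Cdh5, Cldn5, Kdr, Egfl7 and Emcn, with 0 UMIs of Ptprc and C1qa. Macrophages held at least 3 of Csf1r, Adgre1, C1qa, C1qb, Cd68 and Fcgr3, with 0 UMIs of Cdh5, Cd3e and Pdgfra. The fibroblast-marker gate held at least 3 of Pdgfra, Pdgfrb, Dcn, Lum, Dpt, Clec3b, Col14a1 and Col3a1, with 0 UMIs of Ptprc, Pecam1, Cdh5, C1qa and Rgs5. In all, 1 cell met 2 gates. Counts were summed per tumour and gate and tested with edgeR 4.0.16 (glmQLFit and glmQLFTest after filterByExpr and TMM) in R 4.3.3, with all 9 tumours in each fit. Comparisons of gates and interactions came from a joint fit with the tumour as a block. Every adjusted p is edgeR's, Benjamini-Hochberg adjusted over all genes tested and called below 0.05, and the SE is the log2 fold change over the square root of F. DESeq2 1.42.0, other scalings, gates and filters, and leaving out each library were tried as alternatives. The fits were tested on simulated data. Shares of cells were computed in Python 3.11.15 with numpy 2.4.6 and scipy 1.17.1 after thinning.

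All 10 genes are named. From each pathway list, up to 3 called genes with the largest change in Kmt2c KO were named (other list genes named beside them, H2-Q4 and uncalled genes among them, were chosen after their values were seen), with the 8 genes most alike in level, of which 1 is not reported here. The genes, lists and gates were chosen with earlier results of these data known. H2-L was not analysed here, and H2-T10 was listed but not found among the rows of the feature table.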

Additional observations from a re-analysis of the deposited data

Results flagged for a closer look

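For these genes the difference between a knockout and WT was itself different in H2BMc-positive tumour cells and in another gate of the same tumours, by the interaction of the joint edgeR fit. In Kmt2c KO tumours against endothelial cells, the interaction was 1.87 (log2) for Psmb9 and 0.89 for Psmb8, so both rose more in tumour cells. Over 13 settings, the main fit among them, the Psmb9 value ran from 1.78 to 2.00 (adjusted p from 3.2e-07 to 0.0049). The Psmb8 value ran from 0.75 to 0.96 (adjusted p from 0.011 to 0.14).

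Against macrophages of the same tumours, the interaction was 1.62 for Psmb9 and 1.04 for Tap1. Over the same settings Psmb9 ran from 1.51 to 1.76 (adjusted p from 2.1e-05 to 0.025) and Tap1 from 0.93 to 1.20 (adjusted p from 0.0036 to 0.077).

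Against the fibroblast-marker gate, the interaction of Nlrc5 was 1.31 in Kmt2c KO and 1.36 in Kmt2d KO tumours. Its adjusted p ran from 0.0002 to 0.029 and from 0.00019 to 0.018 over the same settings. The interaction of B2m in Kmt2d KO tumours was -0.50 (-0.60 to -0.39, adjusted p from 0.019 to 0.29). Nlrc5 was 1 of the 10 called higher in each knockout, where 13.5% of all genes were in Kmt2c KO and 11.3% in Kmt2d KO. B2m was 1 of the 10 called lower in Kmt2d KO, where 6.81% were. These counts lie near the shares of all genes. Few cells of this gate carried collagen I transcripts, and tumour cells without a detected H2BMc UMI cannot be told apart from its other cells, so these values need not set tumour against host cells.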

How the results depend on the processing

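No paired analysis was possible because the sources used here do not tie the replicate numbers of the labels to the libraries, so tumours could not be paired across genotypes. The comparisons of gates and the interactions were paired within tumours. The 10 genes were called in Kmt2c KO tumour cells under every alternative run, with 10 to 10 called when single libraries were left out. Of 244 alternatives to the counts of called genes, 193 gave a count within 1.5 times the main one, 16 a larger and 35 a smaller one. Of 1606 alternatives to single log2 fold changes, 1417 kept direction and side of the threshold, 45 passed it newly, 138 no longer passed and 6 changed sign. In Kmt2d KO tumour cells against WT (3 called), DESeq2 called 6 and fitting without the low-count filter 8. In Kmt2d KO against Kmt2c KO tumour cells (0 called by edgeR, with 2506 genes at an unadjusted p below 0.05), DESeq2 called 4, library-size scaling 1, no filter 7 and a gate of 2 H2BMc UMIs 1. In the fibroblast-marker gate, Kmt2c KO fell from 9 to 4 with 1 more marker and to 0 with collagen I, and Kmt2d KO went from 2 to 7 with DESeq2, to 0 with 1 more marker and to 0 with collagen I, where WT tumour 2 had too few cells to enter. With 1 more marker, the interaction count fell to 1 for Kmt2c KO against endothelial cells and to 1 for Kmt2d KO against the fibroblast-marker gate, and library-size scaling also gave 1 there. The cause of these changes was not tested.

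With single libraries left out, the counts ran from 1 to 7 in Kmt2d KO tumour cells, 0 to 10 for Kmt2d KO against Kmt2c KO, 3 to 10 and 0 to 1 in endothelial cells of Kmt2c KO and Kmt2d KO tumours, 4 to 10 and 0 to 0 in macrophages, and 5 to 9 and 0 to 4 in the fibroblast-marker gate. WT tumour cells against endothelial cells gave 6 to 9, macrophages 6 to 7 and the fibroblast-marker gate 3 to 4. Interaction counts ran from 1 to 2, 1 to 4 and 1 to 4 in Kmt2c KO and from 0 to 0, 0 to 0 and 1 to 3 in Kmt2d KO tumours against endothelial cells, macrophages and the fibroblast-marker gate. Shares of all genes called in the same fits are not set beside these counts, so a changed count need not be particular to the 10. The changes of sign were in values that did not pass. Without Kmt2d KO tumour 2, Psmb8 in endothelial cells of Kmt2d KO tumours was -0.11 (-0.11 to 0.42 over left-out libraries), and in macrophages B2m was -0.070 (-0.070 to 0.39) and Tapbp -0.039 (-0.039 to 0.63). In WT tumour cells against macrophages, H2-D1 was 0.016 without WT tumour 3 (-0.21 to 0.016), and Tap2 was 0.12 without it (-0.18 to 0.12) and 0.094 with 1 more marker. Alternatives chosen after seeing the data were the collagen I gate and endothelial cells without immune UMIs.

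The 60 alternative shares of H2BMc-positive cells with a UMI of a single gene, by group and at 3000 UMIs or unthinned, moved by more than the spread between tumours. Depth was low in the stromal gates, where Nlrc5 rested on 4 to 33 UMIs per tumour in endothelial cells and on 5 to 79 in macrophages.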
